A study of Mus musculus with 4 samples.

Results

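Chromatin accessibility was examined at the genes of 8 interferon regulatory factors (IRFs), Irf1, Irf2, Irf3, Irf4, Irf5, Irf7, Irf8 and Irf9, in mouse lung adenocarcinoma cells with and without activation of Malat1. Every peak that the authors' deposited table assigns by gene symbol to 1 of these genes was taken, which gave 36 of 80881 peaks. Irf8 had 10 peaks, Irf2 had 8, Irf1 had 6, Irf5 had 5 and Irf4 had 4, while Irf3, Irf7 and Irf9 had 1 each. ATAC-seq, which reads open DNA through the insertions of a transposase, was run on KPC cells, a line derived from a KP mouse lung tumour. All cells carried SpCas9 from a lentivirus, selected with puromycin, and the CRISPR activation system of a lenti-SAM-Hygro vector. The 2 groups differ in the guide, mA2 dRNA directed at Malat1 or Con dRNA directed at luciferase, with 2 libraries each, and the series describes them as biological replicates of this single line.

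IRFs are transcription factors that share an amino-terminal DNA-binding domain and recognise repeats of the core GAAA in interferon-stimulated response elements. Some are switched on by phosphorylation after cytosolic or endosomal sensors detect foreign nucleic acid and then induce interferon genes, others carry the signal of the interferon receptors to target genes, and a pair of them, Irf4 and Irf8, are known mainly from lymphoid and myeloid cells. In epithelial cells the IRF system is known for antiviral defence and for antigen presentation.

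Read values below are group means of normalized reads at a peak, as the authors computed them, and each difference is the log2 mean with mA2 dRNA minus the log2 mean with Con dRNA. The 4 columns of single libraries carry names that match no sample label and were not used, so no spread between libraries stands beside these means and whether the libraries of the groups overlap was not examined. A peak counts as called, and is said to rise or fall, only if the authors' deposited table lists its adjusted p below 0.05. An open site in more cells and a more open site in each cell cannot be told apart in such bulk libraries. Of the 36 peaks, 35 are windows of 401 bp, so their levels compare at equal length.

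Start-site sequences are shown for Irf1 and Irf2, with strong start-site peaks, for Irf4, with the weakest, and for Irf8, with no listed peak there. Each is the 250 bases before the RefSeq start site, 5′ to 3′ on the strand of the gene (build GRCm38.p6, which corresponds to mm10), with matches in capitals to the IRF element GAAANNGAAA, the interferon-gamma activated site TTCNNNGAA that STAT dimers bind, the NF-kB consensus or the TATA box TATAAA, searched on both strands.
Irf1 (chr11:53769764-53770013, plus strand): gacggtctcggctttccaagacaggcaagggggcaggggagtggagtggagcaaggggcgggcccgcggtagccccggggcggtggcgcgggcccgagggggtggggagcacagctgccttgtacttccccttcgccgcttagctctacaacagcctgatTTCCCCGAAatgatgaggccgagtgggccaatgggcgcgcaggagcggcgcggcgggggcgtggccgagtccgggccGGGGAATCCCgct
Irf2 (chr8:46739495-46739744, plus strand): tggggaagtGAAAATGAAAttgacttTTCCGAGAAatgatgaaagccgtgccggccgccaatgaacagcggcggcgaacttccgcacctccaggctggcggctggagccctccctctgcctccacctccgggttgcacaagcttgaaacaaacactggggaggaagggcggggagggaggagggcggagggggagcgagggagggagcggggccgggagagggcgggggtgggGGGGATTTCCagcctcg
Irf4 (chr13:30748983-30749232, plus strand): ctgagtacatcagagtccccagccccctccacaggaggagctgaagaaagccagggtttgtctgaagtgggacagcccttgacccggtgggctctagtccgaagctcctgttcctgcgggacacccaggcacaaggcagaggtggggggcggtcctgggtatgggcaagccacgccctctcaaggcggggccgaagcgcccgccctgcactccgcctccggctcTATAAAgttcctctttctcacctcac
Irf8 (chr8:120736108-120736357, plus strand): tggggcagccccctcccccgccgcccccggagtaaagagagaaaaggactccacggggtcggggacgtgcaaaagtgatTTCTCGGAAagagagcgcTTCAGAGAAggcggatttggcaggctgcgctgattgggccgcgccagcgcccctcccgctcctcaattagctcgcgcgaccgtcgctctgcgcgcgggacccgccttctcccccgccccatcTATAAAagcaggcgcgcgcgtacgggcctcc

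All 8 genes were found in the RefSeq promoter table. The Irf1 window held 1 interferon-gamma activated site, TTCCCCGAA, from 90 to 82 bases upstream, and 1 NF-kB match, GGGGAATCCC, from 13 to 4 bases upstream. The Irf2 window held 3 matches, among them GAAAATGAAA, the single IRF element in these 8 windows. Irf8 had 2 interferon-gamma activated sites, TTCTCGGAA and TTCAGAGAA, and a TATA box, while Irf4 had a TATA box from 26 to 21 bases upstream and no other match. Irf7 had a TATA box alone, and Irf3, Irf5 and Irf9 had no match. The Irf5 window (chr6:29526375-29526624) lies inside the RefSeq gene body, which starts at 29526130, so it does not cover the bases before that point. None of the matched stretches overlapped another. Of 32851 RefSeq promoter windows of the same length, 2.98% held the IRF element, 7.02% the interferon-gamma activated site, 3.90% the NF-kB match and 12.4% the TATA box. A match describes these letters only and shows no bound factor. The G and C content ran from 54.4% at Irf7 and Irf9 to 72.0% at Irf5, against a median of 52.4% over all windows. Irf8 held 29 CpG pairs, more than 93.2% of windows, Irf1 and Irf5 held 25 each, and Irf7 held 3.

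At the start sites the IRF genes covered a wide range of accessibility. A peak of any assigned gene lay within 1 kb of the start site for 7 of the 8 genes, where 10376 of 17492 protein-coding genes (59.3%) had such a peak. Each IRF gene was taken at a single RefSeq start site, nearest to the one implied by the authors' distances. A protein-coding gene counted with a peak at any of its RefSeq start sites, which is a looser rule. The start site of Irf1, the activator that interferon-gamma induces, was the most open, with 696 normalized reads with mA2 dRNA and 636 with Con dRNA, above 85.4% of the peaks annotated as promoters. Irf3 (392 and 358 reads) and Irf2 (388 and 360) followed, then Irf9 with 278 and 290. Irf5 held 127 and 94.6 reads and Irf7 held 108 and 118. Irf4 came last, with 13.9 and 30.6 reads, above only 1.81% of promoter peaks, and Irf8 had no peak within 1 kb. Neighbours in this order could not be told apart by a test, since no spread between libraries was available. A promoter without a listed peak is a site the authors' peak calling did not report, and the signal there was not measured here.

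None of these start-site peaks was called, beside 1.42% of all promoter-class peaks, a share too low to tell apart from none with so few peaks. The Irf2 start site lies under a peak that the authors' deposited table assigns to Gm16675, a noncoding RNA gene whose body lies next to Irf2, 230 bases upstream, and which lists its adjusted p as 0.962. Taking for each gene the peak nearest to the start site, this one included, the differences ran from -1.14 at Irf4 to 0.43 at Irf5, and without those 2 genes they lay between -0.13 and 0.13. For the others the authors' deposited table lists adjusted p-values of 0.901 at Irf1, 0.945 at Irf3, 0.995 at Irf9, 0.984 at Irf7, 0.738 at Irf5 and 0.452 at Irf4. The Irf3 peak (chr7:44997134-44997534) overlaps the gene body of Bcl2l12, which ends 10 bases before the Irf3 start site, so its signal cannot be assigned to 1 of the 2 genes. A further peak, 1.11 kb downstream of that start site and assigned to Bcl2l12, held 263 and 222 reads.

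Markers of leukocytes were examined because Irf4 and Irf8 are known mainly from those cells. Of 8 leukocyte markers, Ptprc, Spi1, Cd3e, Cd79a, Itgam, Adgre1, Lyz2 and Coro1a, 0 had a peak within 1 kb of the start site, and 0 of their 12 assigned peaks were called, beside 2.73% of all peaks, with 1 at a p below 0.05 before adjustment in the authors' deposited table. The highest of these peaks held 127 reads, and Cd79a had no peak at all. Of 7 epithelial and lung markers, Cdh1, Krt8, Krt18 and Krt19 had a start-site peak, with group means from 68.7 reads at Krt18 to 432 at Krt19, while Epcam, Nkx2-1 and Sftpc had none, and 1 of the 42 peaks of these 7 genes was called, higher (2.38%). The part of these markers in the values of Irf4 and Irf8 was not tested. Malat1 RNA is not measured by this assay. Of 13 peaks assigned to Malat1, 12 had the higher mean with mA2 dRNA, as did 60.8% of all peaks, and 1 was called, higher. The peak at the Malat1 start site held 322 and 290 reads (adjusted p 0.978, authors' deposited table).

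**Figure D1:**
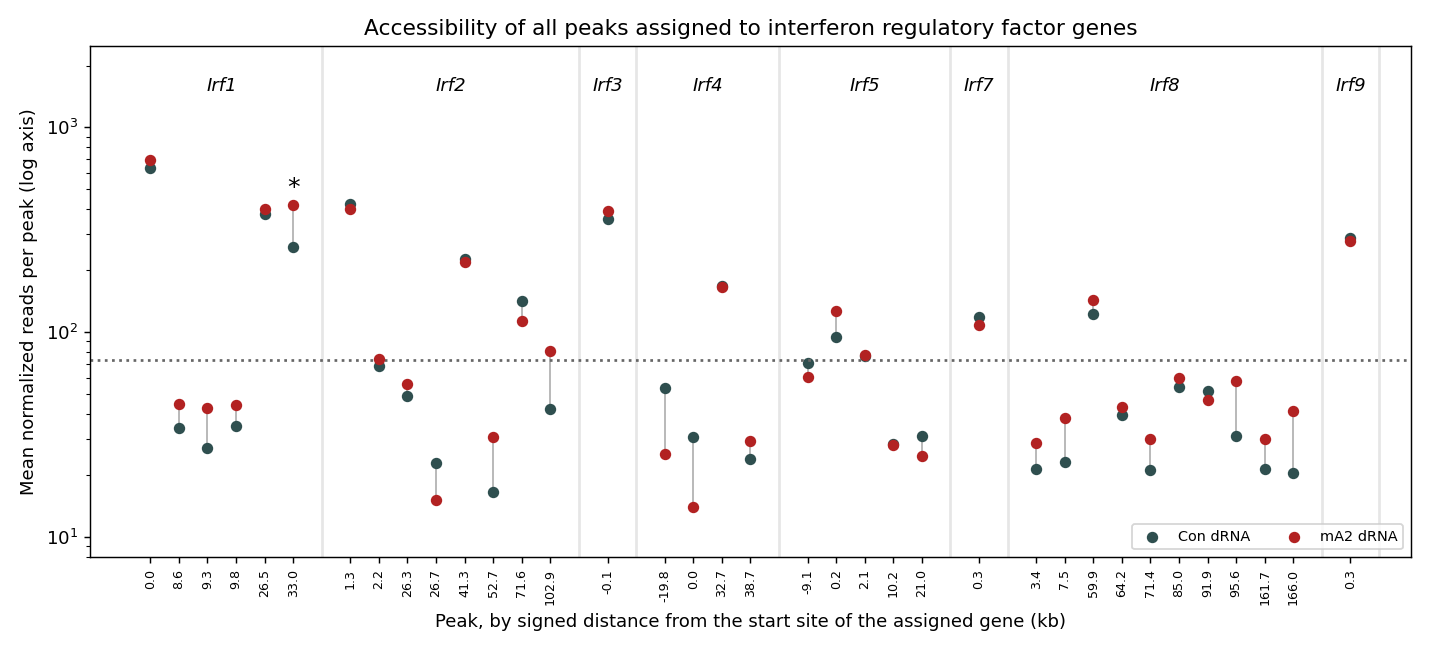
Mean normalized reads (log axis) at each of the 36 peaks, grouped by assigned gene and ordered by signed distance from its start site in kb, for Con dRNA (dark) and mA2 dRNA (red). A grey line joins the 2 group means, an asterisk marks the called peak, and the dotted line is the median of 73.1 reads over all 80881 peaks. The Irf1 start site is highest at 696 and 636 reads, and most Irf8 peaks lie below the dotted line.

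The share of IRF peaks that were called was near that of all peaks. A single peak, at Irf1, was called higher and 0 were called lower, a share of 2.78%, beside 2.73% of all peaks called in either direction, 2.23% higher and 0.507% lower. Without adjustment, the authors' deposited table lists a p below 0.05 for 3 IRF peaks (8.33%), 1 each at Irf1, Irf4 and Irf8, and for 11.7% of all peaks. The mean was higher with mA2 dRNA in 23 of the 36 peaks (63.9%) and in 60.8% of all peaks. The median difference was 0.13, beside 0.09 over all peaks, with a range from -1.14 to 1.0002. Of the 36 peaks 3 differed by 2-fold or more, 2 of Irf4 and 1 of Irf8, and 7.67% of all peaks did.

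The IRF peaks had a lower median level than peaks at large, 50.7 against 73.1 reads, and 15 of them (41.7%) held under 40 reads, beside 29.1% of all peaks. Of the 36 peaks 19 were annotated as introns, 6 as promoters and 5 as distal intergenic (13.9%, beside 33.3% of all peaks). Most Irf8 peaks are in the intron class through a transcript under the gene ID of Galnt2, though they lie outside any RefSeq gene body. The low intergenic share therefore rests on that annotation and shows no lack of intergenic peaks. More than 20 kb from the start site lay 19 of the 36 peaks (52.8%), and 49.2% of all peaks. The 12 peaks of at least 100 reads had differences from -0.32 to 0.68, with a median of 0.039. The 24 weaker peaks spread from -1.14 to 1.0002, with a median of 0.24. Neither median was set beside that of other peaks of like level. Centred along abundance, the median over the 36 peaks was 0.036.

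**Figure D2:**
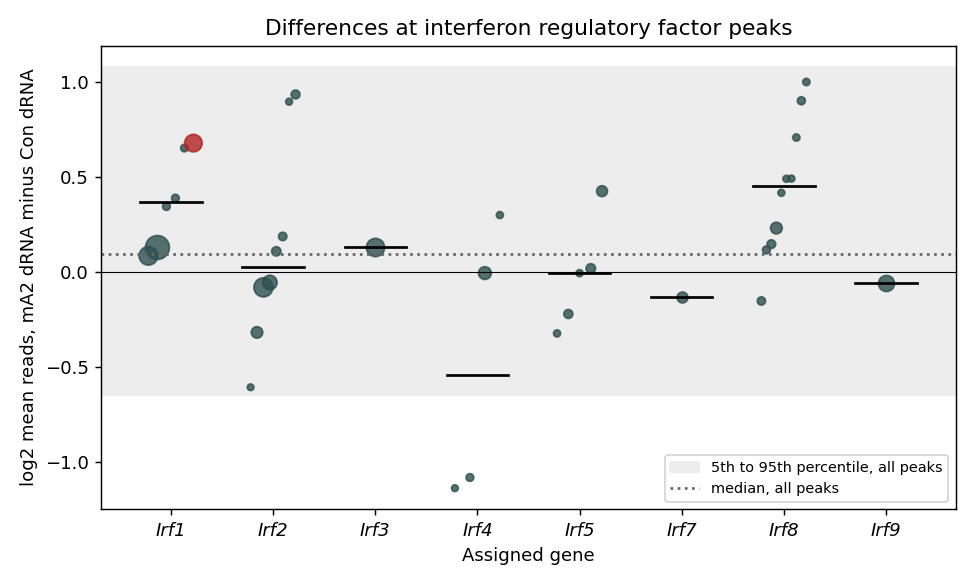
Difference in log2 mean reads, mA2 dRNA minus Con dRNA, at each peak by assigned gene. Point area grows with the mean level of the peak, red marks the called peak, a black bar is the median of a gene's peaks, the dotted line is the median over all peaks (0.09) and the shaded band runs from the 5th to the 95th percentile over all peaks (-0.65 to 1.08). Of the 36 points 2, both of Irf4, lie outside the band.

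Irf1 and Irf2 act at the same elements, Irf1 mainly as an activator and Irf2 mainly as its antagonist. Irf1 (gene ID 16362, chromosome 11 from 53770014 to 53778374) was the only IRF gene with a called peak, and all 6 of its peaks had the higher mean with mA2 dRNA, with a median difference of 0.37. The called peak (chr11:53803059-53803459) lies 33.0 kb downstream of the start site, in an intron of the noncoding RNA gene Gm12216, which runs from 53785489 to 53859256. It held 418 reads with mA2 dRNA and 261 with Con dRNA, a rise of 1.60-fold (adjusted p 0.0426, authors' deposited table). That p lies close to the threshold. Differences were also centred on the median, by chromosome, along abundance or by 10 Mb window, with p recomputed from an approximate standard error. The adjusted p then ran from 0.103 to 0.139, so the call ended under each of these centrings.

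The neighbouring peak in the same intron, 26.5 kb from the Irf1 start site, held 400 and 377 reads, a difference of 0.085. The 3 peaks from 8.62 to 9.75 kb, just past the 3′ end of the gene, were weak, with 42.8 to 44.6 reads with mA2 dRNA and 27.3 to 34.6 with Con dRNA, and none was called. Within 200 kb of the Irf1 start site lay 31 peaks, of which 2 were called, both higher and both inside Gm12216. Over all peaks 2.23% were called higher, and around all the IRF start sites together 1.41% of peaks were called. The first of the 2 is the called Irf1 peak described above. The second, assigned to Gm12216 and 51.7 kb from the Irf1 start site (chr11:53821538-53821938), rose 3.68-fold, from 24.6 reads to 90.5 (adjusted p 0.01002, authors' deposited table). The median difference over the 31 peaks was 0.16, beside 0.10 over chromosome 11.

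Irf2 (gene ID 16363, chromosome 8 from 46739745 to 46847458) had no called peak. All 8 of its assigned peaks lie in introns of the gene, and 4 had the higher mean in each direction, with a median difference of 0.026. The strongest, 1.31 kb from the start site in intron 1, held 399 reads with mA2 dRNA and 422 with Con dRNA. A peak in intron 7, 103 kb from the start site, held 80.9 and 42.3 reads, a difference of 0.93, and had the smallest p of the gene (adjusted p 0.453, authors' deposited table). A weak intron 1 peak 26.7 kb from the start site went the other way, with 15.1 and 23.1 reads. Among 39 peaks within 200 kb of the Irf2 start site 0 were called.

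**Figure D3:**
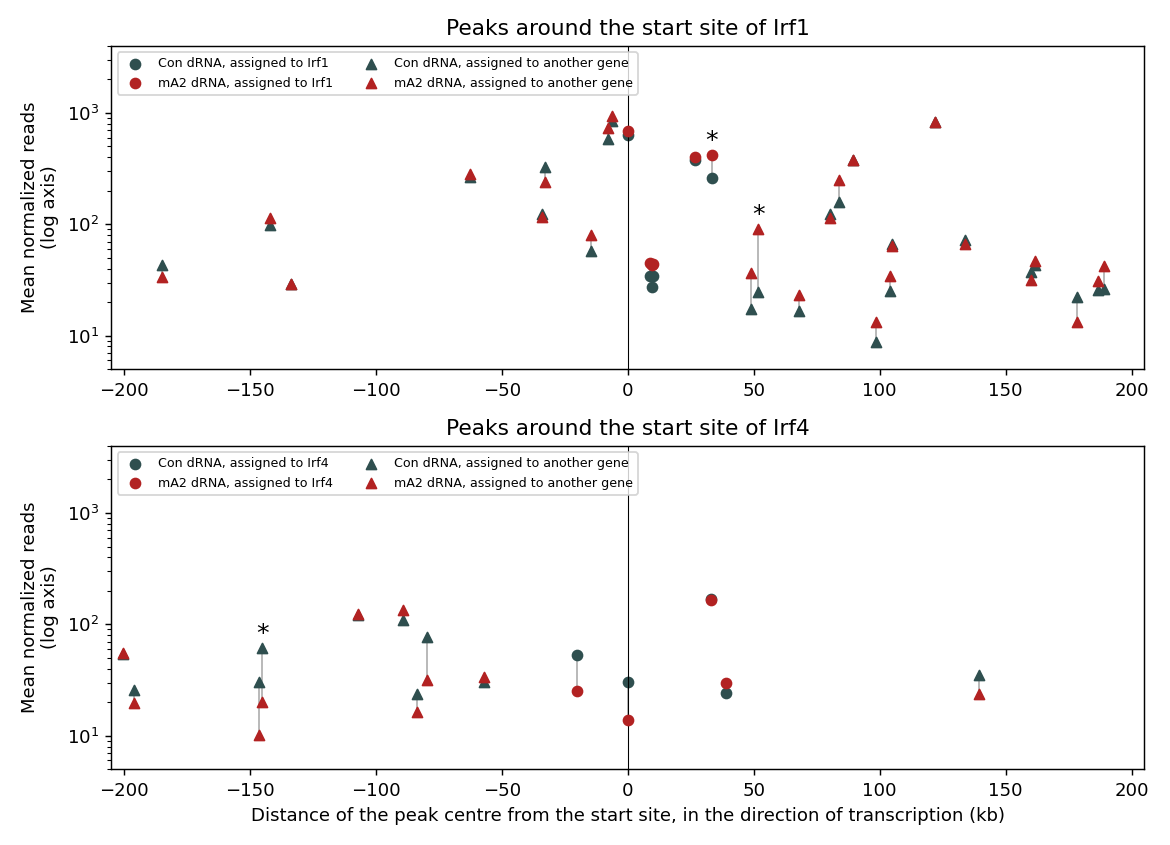
Mean normalized reads (log axis) at every peak within 200 kb of the start sites of Irf1 (top) and Irf4 (bottom), against the distance of the peak centre in kb in the direction of transcription. Circles are peaks assigned to the named gene, triangles peaks assigned to other genes, dark symbols Con dRNA, red symbols mA2 dRNA, and asterisks mark called peaks. The called peaks are 2 higher ones downstream of Irf1 and 1 lower one 145 kb upstream of Irf4.

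The factors that respond to nucleic acid sensors and interferon receptors, Irf3, Irf7, Irf5 and Irf9, had 8 peaks in all and no call. Irf3 is expressed in most cells and starts interferon-beta transcription after phosphorylation, and Irf7 amplifies the response. The Irf3 peak differed by 0.13 and the Irf7 peak (gene ID 54123, chr7:141265779-141266179) by -0.13, beside a median of 0.15 over chromosome 7. Irf9, which directs the complex ISGF3 with Stat2 to DNA, had 1 peak (chr14:55603855-55604255), over its start site, with a difference of -0.059.

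Irf5, which acts below Toll-like receptors and Myd88 and is best known from macrophages, had 5 peaks, and in 2 of them the mean was higher under mA2 dRNA. The promoter peak (chr6:29526861-29527261) held 127 reads with mA2 dRNA and 94.6 with Con dRNA, a difference of 0.43, and had the smallest p of the gene. A peak of the 5′ UTR class 2.07 kb from the start site held 77.7 and 76.7 reads. The remaining 3 peaks held 24.9 to 60.7 reads with mA2 dRNA and 28.4 to 70.8 with Con dRNA. Of 37 peaks within 200 kb of the Irf5 start site 25 had the lower mean with mA2 dRNA and 0 were called. Their median difference was -0.061, beside -0.12 over the 10 Mb window around Irf5 and 0.044 over chromosome 6.

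The lymphoid and myeloid factors Irf4 and Irf8 had the largest differences of group means in the family, in opposite directions and at weak peaks, and none was called. By the log2 fold in the authors' deposited table, which was nearer to 0 than the difference of means at each of the 36 peaks, the order was another: 0.53 at the called Irf1 peak, -0.31 at the Irf4 peak 19.8 kb upstream, 0.21 at the Irf8 peak 95.6 kb downstream and -0.19 at the Irf4 start site. Irf4 (gene ID 16364, chromosome 13 from 30749233 to 30766981), a factor of plasma cells and activated T cells, held fewer reads with mA2 dRNA in 3 of 4 peaks. Its start-site peak (chr13:30748974-30749374) held 13.9 and 30.6 reads, a difference of -1.14 (adjusted p 0.452, authors' deposited table). An intergenic peak 19.8 kb upstream (chr13:30728986-30729386) held 25.3 and 53.6 reads, a difference of -1.08 (p 0.0226 and adjusted p 0.280, authors' deposited table). The strongest peak, 32.7 kb downstream, held 167 reads in each group.

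Beside these 4 peaks, 10 peaks assigned to other genes lay within 200 kb of the Irf4 start site. Of those 10, 6 had the lower mean with mA2 dRNA, 3 of them by 2-fold or more, and 4 the higher, and the median difference was -0.45. Chromosome 13 as a whole had a median difference of 0.23, as did the 10 Mb window around Irf4, both of the opposite sign. Of the 10, 1 was called: an intergenic peak 145 kb upstream, assigned to 4930519D14Rik (chr13:30603938-30604338), fell 3.05-fold, from 61.9 reads to 20.3 (adjusted p 0.0478, authors' deposited table). Over all peaks 2.73% were called in either direction, and 0.507% were called lower. No test of the locus as a whole was made.

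Irf8 (gene ID 15900, chromosome 8 from 120736358 to 120756694), a factor of monocytes, dendritic cells and B cells, had the higher mean with mA2 dRNA in 9 of 10 peaks. The median difference was 0.45, beside 0.11 over chromosome 8, and no peak was called. Of the 10 peaks 2 lie within the gene, at 3.44 and 7.54 kb, with 28.8 against 21.6 and 37.9 against 23.2 reads. The other 8 lie beyond its 3′ end, from 59.9 to 166 kb from the start site, outside any RefSeq gene body. The authors' deposited table annotates 9 of the 10 as the first intron of a transcript under the gene ID of Galnt2, whose RefSeq body starts at 124231394, so the intron class says little here.

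Among the distal Irf8 peaks, the strongest, 59.9 kb from the start site, held 144 and 123 reads, a difference of 0.23. The peak with the smallest p (chr8:120831987-120832387), 95.6 kb away, held 57.8 reads with mA2 dRNA and 30.9 with Con dRNA, a difference of 0.90 (p 0.0413 and adjusted p 0.386, authors' deposited table). The most distant, 166 kb away, held 41.2 and 20.6 reads. Summed over the 10 peaks, which cover 4010 bp in both groups, Irf8 held 519 and 407 reads, a ratio of 1.27, while the same sum gave 1.20 at Irf1, 0.997 at Irf2 and 0.854 at Irf4 and the sum over all peaks gave 1.07. Within 200 kb of the Irf8 start site 0 of 30 peaks were called, and their median difference was 0.13.

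Taking the surroundings of all 8 genes, 283 peaks lay within 200 kb of a start site and 4 were called (1.41%, against 2.73% of all peaks). Apart from those near Irf1 and Irf4, the remaining call was an exonic peak of Cpt1c, 27.3 kb upstream of Irf3, that rose 2.45-fold from 86.2 to 212 reads. Around Irf7 and Irf9 0 of 43 and 0 of 32 peaks were called.

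Other genes of the interferon pathway had few calls, in both directions. Over 68 listed genes with at least 1 peak, 331 peaks were assigned, of which 3 were called higher and 3 lower (1.81%, against 2.73% of all peaks), and the median difference was 0.11. Among receptors and receptor kinases 0 of 55 peaks were called higher and 1 lower. It lies 17.4 kb upstream of Jak2, a kinase of the interferon-gamma receptor, and fell 2.60-fold, from 181 reads to 69.7 (adjusted p 0.00473, authors' deposited table). Stat2 and Stat3, which carry receptor signals to the nucleus, had 0 calls among 8 peaks, also 0 with a p below 0.05 before adjustment in the authors' deposited table, and the smallest p belonged to a Stat3 peak of 30.6 and 20.4 reads. Sensors and adaptors of foreign nucleic acid had 0 calls among 47 peaks and, without adjustment, 2 peaks with a p below 0.05 in the authors' deposited table, led by a peak annotated as intronic, of 385 and 266 reads and assigned to Zbp1, a sensor of Z-form nucleic acid.

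Kinases and adaptors that act on IRFs had 1 higher and 1 lower call among 49 peaks. The peak that rose lies 32.5 kb upstream of Tank, a scaffold of the IRF kinases Tbk1 and Ikbke, with 88.9 reads against 29.9, a rise of 2.98-fold (adjusted p 0.0236, authors' deposited table). The peak that fell, 61.2 kb upstream of Traf3, held 37.8 against 103 reads. Of 77 peaks of IRF partners and cofactors 1 was called, an intronic peak placed 27.4 kb upstream of Ikzf1, the lymphoid factor Ikaros, which rose 2.78-fold, from 84.2 reads to 234 (adjusted p 3.01e-04, authors' deposited table). It was the single peak assigned to Ikzf1. Spi1, the partner of Irf4 and Irf8 on composite elements, was represented by 1 peak of 29.9 reads that was not called.

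Target genes of IRFs had a median difference of 0.015, with 53 of 98 peaks higher in mean and 1 call in each direction. The higher call was at Socs1, the feedback inhibitor of JAK kinases, where a peak 3.07 kb from the start site rose 1.56-fold to 586 reads (adjusted p 0.00549, authors' deposited table). The lower was at Tap2, a subunit of the peptide transporter for MHC class I, where a peak fell 2.97-fold to 134 reads (adjusted p 1.31e-07, authors' deposited table). Centring by chromosome or by 10 Mb window ended the Socs1 and Tank calls, with an adjusted p of 0.271 and 0.167 at Socs1 and 0.0591 and 0.0655 at Tank. Of 34 target genes 26 had a peak within 1 kb of the start site.

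**Figure D4:**
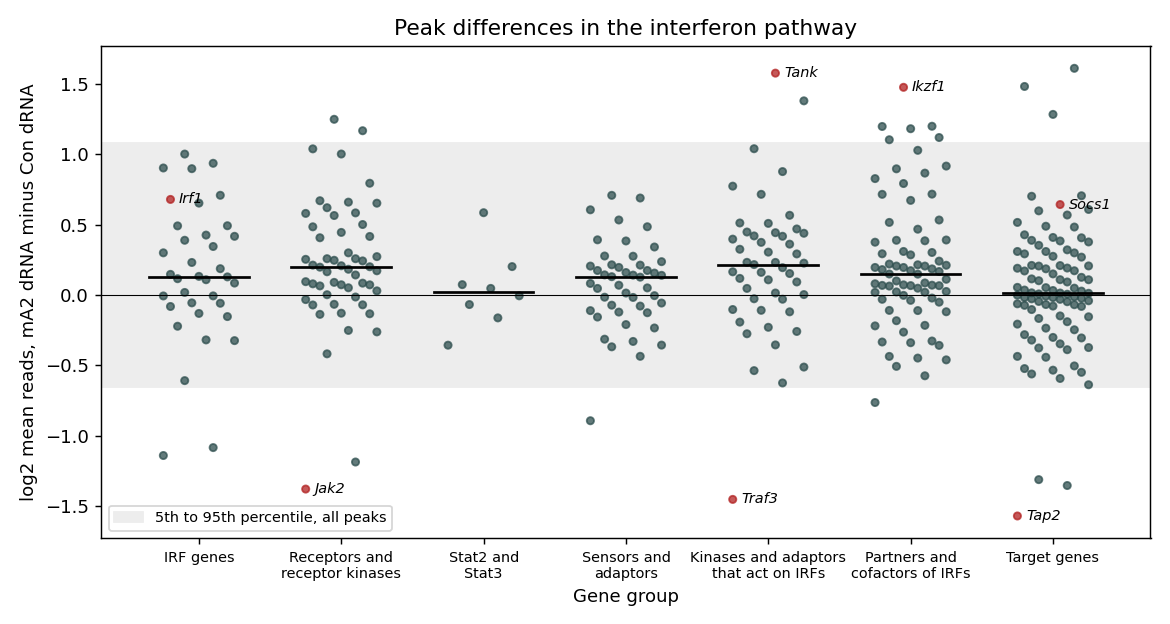
Difference in log2 mean reads, mA2 dRNA minus Con dRNA, at every peak of the IRF genes and of 6 groups of interferon pathway genes. Each point is a peak, red points with a gene name are called, black bars are medians and the shaded band runs from the 5th to the 95th percentile over all peaks (-0.65 to 1.08). The medians lie between 0.015 for target genes and 0.22 for kinases and adaptors that act on IRFs, and each group has at most 2 called peaks.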

How the data were processed

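The authors deposited 1 table of ATAC-seq peaks in mm10. Per the file headers, its group columns are log2 values of mean normalized reads, and each peak further has a log2 fold and a raw and adjusted p-value from the authors. Per the submitters' processing notes, the tools include Bowtie2, MACS2, DiffBind and ChIPseeker, with no version given. Read filters, insertion shift, library normalization, depth and the test behind the p-values remain not given in the sources used here. In the header the groups are dmA12 and dLuc, and these were matched to mA2 dRNA and Con dRNA through the single contrast of the series. The 4 library columns match no sample label and were not used, so fits per library were not run.

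Reads are 2 to the power of the deposited log2 means. Benjamini-Hochberg adjustment of the deposited p-values over all peaks gave the deposited adjusted values within 7.40e-06. For centred alternatives, the standard error implied by the authors' p was kept and p recomputed and adjusted over all peaks. This treats the authors' p as that of a normal test of the difference of log2 means. It is an approximation that could not be checked, since the authors' test is not given. The centring steps were tested on simulated data drawn under the same assumption (Python 3.11.15, SciPy 1.17.1). Gene bodies, names and promoter windows are from RefSeq GRCm38.p6, where 18754 of 18766 gene IDs were found. The named peaks are, for each IRF gene, the promoter peak nearest to the start site, the peak with the smallest p and each called peak, and for each pathway group the called peaks and the one with the smallest p. Peaks named beyond that rule, such as the strongest of a gene, were chosen after their values were seen. The members and lists were chosen with earlier results of these data known. Of the listed genes 2 are not reported here and were left out of every list count.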

Additional observations from a re-analysis of the deposited data

How the results depend on the processing

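The single IRF call was not stable. The count of 1 higher IRF peak became 0 with each of the 4 centrings, with a threshold of 0.01 and within 3 kb of the start site, while the count of 0 lower calls held under the alternatives run. The adjusted p of the Irf1 peak at 33.0 kb ran from 0.0412 with peaks of at least 20 reads to 0.139 with 10 Mb windows. The median IRF difference of 0.13 became 0.039 centred on the median, 0.018 by chromosome, 0.036 along abundance, 0.067 by window, 0.018 within 3 kb, 0.085 within 50 kb and 0.0098 with 1 median per gene. By the log2 fold of the authors' deposited table in place of the difference of means, the Irf4 start site moved from -1.14 to -0.19, the Irf4 peak at 19.8 kb from -1.08 to -0.31, the Irf2 peak at 103 kb from 0.93 to 0.18 and the Irf8 peak at 95.6 kb from 0.90 to 0.21, with no change of sign at the 18 named peaks. The Irf3 peak turned to -0.018 when centred by chromosome. The 3 higher pathway calls became 1 by chromosome or window, 6 at a threshold of 0.10 and 0 within 3 kb, where the 3 lower calls also became 0. Fewer peaks enter the counts within 3 kb, and for the other changes the cause was not tested. No paired analysis was possible because the library columns carry no sample name, and for the same reason no library could be left out. Depth per library was not known, so no floor could be set for weak peaks.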
